A study of Saccharomyces cerevisiae with 49 samples.

Results

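The DEAD-box helicases of ribosome assembly were examined in 10 genes of 5449 Saccharomyces cerevisiae genes on the array: DBP2, DBP3, DBP6, DBP7, DBP8, DBP9, DBP10, DRS1, HAS1 and SPB4. The genes were chosen by name, and each had 1 probe set whose platform symbol was that name. All 10 probe sets passed the filter on low signal. The culture was CEN.PK113-7D, a haploid laboratory strain of mating type a, grown in glucose-fed continuous culture in a fermentor in which the cells oscillated with a period of about 4 h. All 49 samples came from this 1 strain in the oscillating state, with no mutant, drug or non-oscillating culture beside them, and 1 array was run per sample. Samples were taken every 5 min, and the labels place each at a phase angle in degrees, in which 360 degrees is 1 cycle. The labels count on past 360, so that 360 is phase 0 of the cycle, and they do not say which event defines it.

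The first pass through the cycle held 47 samples. They were grouped into 8 windows of 45 degrees with 6 samples each, except phase 315-360 with 5, and are named by the angle within the cycle. The first 4 and the last 2 samples of this pass share 1 window, the one up to phase 270. A further 2 samples belonged to a second pass. The windows compared were phase 0-45 against the other 7, phase 0-45 against phase 315-360, phase 45-90 against phase 0-45, and phase 315-360 against the window from phase 90. Successive samples of 1 culture are not separate cultures, so the p-values measure only the spread between such samples.

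DEAD-box proteins are ATP-dependent RNA helicases named for a conserved motif of 4 amino acids. In yeast nucleoli they open, release or remodel RNA duplexes while ribosomal RNA is cut, modified and packed with ribosomal proteins and while small nucleolar RNAs come off the pre-rRNA. Most act on 1 of the subunits, and most are essential for growth. Genes of ribosome assembly are known in yeast for being switched on together when growth conditions are good and off together under stress.

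The signal of every helicase formed a short, high pulse just after phase 0, followed by a deep minimum and a slow return. The highest signal fell at 377.35 degrees in 8 genes and 1 sample earlier, at 369.70 degrees, in DBP8 and SPB4. The lowest signal followed 40 to 55 min later, between 438.58 and 453.89 degrees. The highest signal exceeded the lowest by 8.30-fold in SPB4 and 103-fold in DBP2, with a median of 41.4-fold over the 10 genes. Levels here are signals on a linear scale, scaled so that all arrays have 1 common median. Levels of different probe sets are set beside each other only in the filter on low signal and the checks of background and mating type, as a rough guide. RNA was brought to the same concentration before labelling, so a signal stands for a share of the RNA, and more transcript per cell cannot be told apart from less of other RNA.

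**Figure D1:**
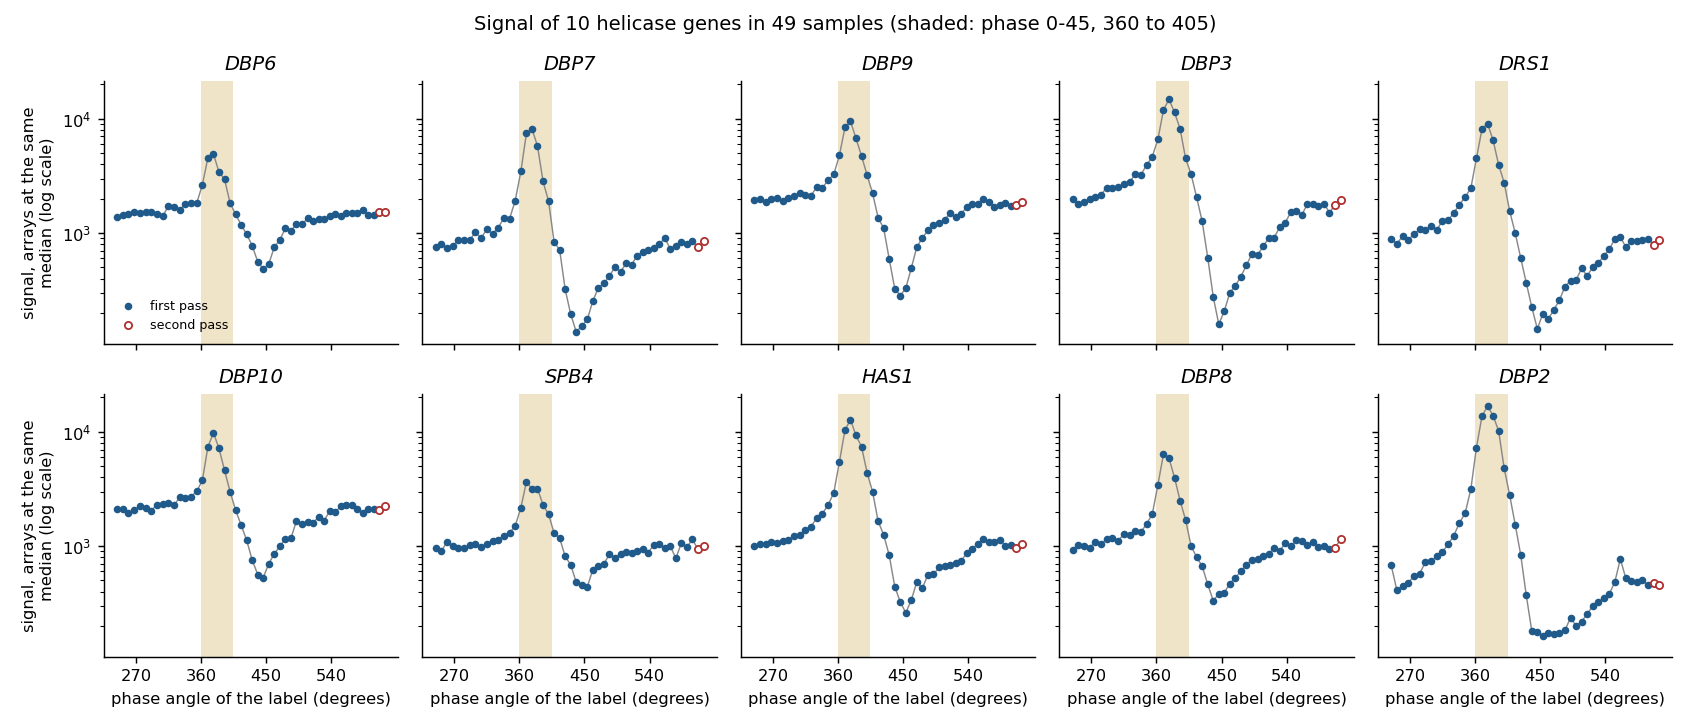
Signal of the 10 genes (log axis) in each of 49 samples against phase angle in degrees. Filled points are the 47 samples of the first pass, open points the 2 of the second, and the shaded band is phase 0-45. All 10 genes are highest inside the band, at 369.70 or 377.35 degrees, and lowest between 438.58 and 453.89 degrees.

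In a test for cycling by cosine and sine terms in all 49 samples, all 10 genes were called, as were 88.4% of the probe sets tested. The samples span little more than 1 cycle and hold 1 pulse, so the test cannot show that the pulse recurs. The cosine fit gave peak-to-trough log2 differences from 0.98 ± 0.22 (SE) in DBP6 to 3.79 ± 0.50 in DBP2, with limma adjusted p from 5.83e-08 to 0.000426. A single cosine described these pulses in part only: it accounted for a share of the variance between 0.291 (DBP6) and 0.543 (DBP2), and 2 harmonics for between 0.675 and 0.889. The single cosine placed the maxima at 316.5 to 352.6 degrees, before the observed highest samples. With 2 harmonics they lay between 358.4 and 12.3 degrees. The window comparisons below follow the pulse more closely.

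All 10 genes were higher in phase 0-45 than over the other 7 windows, against 40.9% of all 5470 probe sets that were higher and 44.7% that were lower. The median log2 difference was 2.38 for the helicases and -0.04 for all probe sets tested. Over all probe sets the central 95 percent of these differences ran from -2.25 to 2.32, and 5 of the helicases lay above it. Ranked by size of the increase among 5470 probe sets, DBP2 was at 2, HAS1 at 21, DRS1 at 26, DBP7 at 52 and DBP3 at 54. The other 5 lay between 228 (DBP8) and 489 (DBP6).

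The early 60S helicases Dbp6, Dbp7 and Dbp9 act on the first precursor particles of the large subunit, Dbp6 in a complex with Urb1 (Npa1) and Urb2 (Npa2). DBP6 (YNR038W) had 2653, 4550, 4941, 3415, 2968 and 1834 signal units in the successive samples of phase 0-45, against a median of 1443 in the 41 other first-pass samples. All 6 samples were above each of the 41, although the highest of the others, 1828, lay just under the lowest of the window. DBP6 averaged 3393 ± 1170 in phase 0-45 and 1326 ± 340 in the other windows (SD, n = 6 and 41 samples), a 2.51-fold increase (log2 1.33 ± 0.14 SE, adjusted p 2.94e-11). It was the smallest increase of the 10.

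DBP7 (YKR024C) had a steeper pulse: 3471, 7464, 8147, 5781, 2831 and 1903 in phase 0-45, against a median of 761.2 outside. Only 1 outside sample, the one at 354.23 degrees with 1926, exceeded the lowest sample of the window. The mean was 4933 ± 2580 in phase 0-45 and 725.5 ± 355 outside, a 6.78-fold increase (log2 2.76 ± 0.24, adjusted p 1.01e-13). DBP9 (YLR276C) had 4778, 8391, 9529, 6721, 4719 and 3221 in phase 0-45, against a median of 1778 outside. Here too only the sample at 354.23 degrees, with 3254, passed the lowest of the window. The increase of DBP9 was 3.98-fold (log2 1.99 ± 0.23, adjusted p 2.46e-10).

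Dbp3 takes part in the processing of pre-rRNA in the first internal spacer on the way to the large subunit, and unlike most of the group it is not essential. DBP3 (YGL078C) had 6617, 11930, 14830, 11370, 8182 and 4500 in phase 0-45, against a median of 1719 outside. The sample at 354.23 degrees had 4663 and was the only outside sample above the lowest of the window. The mean was 9572 ± 3820 in phase 0-45 and 1676 ± 1070 outside, a 6.76-fold increase (log2 2.76 ± 0.30, adjusted p 3.74e-11).

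Drs1, Dbp10 and Spb4 work on later nucleolar precursors of the large subunit. DRS1 (YLL008W) had 4504, 8147, 9084, 6506, 3975 and 2767 in phase 0-45, against a median of 857.6 and a highest value of 2464 outside. The groups did not overlap, and the increase was 7.66-fold (log2 2.94 ± 0.24, adjusted p 2.65e-14). DBP10 (YDL031W) had 3761, 7390, 9800, 7157, 4611 and 3000, against a median of 2042 outside. Its window overlapped the rest by the sample at 354.23 degrees alone, at 3011, and the increase was 3.18-fold (log2 1.67 ± 0.17, adjusted p 1.44e-11).

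SPB4 (YFL002C) had a low and broad pulse: 2171, 3646, 3163, 3179, 2298 and 1899 in phase 0-45, against a median of 957.6 and a highest value of 1503 outside. It stayed at or above 50% of its highest signal for 6 samples, a span of 25 min, where the other genes did so for 3 to 5 samples. Its increase was 2.89-fold (log2 1.53 ± 0.13, adjusted p 6.44e-14), the second smallest, with the smallest SE of the 10.

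Has1 acts on both subunits and releases a class of small nucleolar RNAs from the pre-rRNA. HAS1 (YMR290C) had 5442, 10350, 12760, 9284, 7379 and 4401 in phase 0-45, against a median of 1039 and a highest value of 2973 outside. The groups did not overlap, and the mean was 8270 ± 3140 in phase 0-45 and 1088 ± 607 outside, an 8.05-fold increase (log2 3.01 ± 0.22, adjusted p 1.62e-15). Dbp8, the 1 helicase of the group assigned to the small subunit alone, acts with its cofactor Esf2. DBP8 (YHR169W) had 3449, 6365, 5878, 3966, 2500 and 1693, against a median of 992.3 outside, with 1 outside sample above the lowest. It averaged 3975 ± 1840 in phase 0-45 and 948.1 ± 320 outside, a 4.00-fold increase (log2 2.00 ± 0.16, adjusted p 2.04e-14).

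Dbp2, the yeast relative of mammalian p68 (DDX5), is known for messenger RNA decay and the assembly of mRNA-protein particles as well as for pre-rRNA processing. DBP2 (YNL112W) had the largest pulse: 7285, 13700, 16820, 13890, 10210 and 4832 in phase 0-45, against a median of 483.0 and a highest value of 3135 outside. The lowest sample of the window lay above every sample outside it. The mean was 11120 ± 4510 in phase 0-45 and 682.0 ± 667 outside, a 20.3-fold increase (log2 4.34 ± 0.30, adjusted p 3.11e-16). In all, 5 of 10 genes (DBP2, DBP6, DRS1, HAS1 and SPB4) had every sample of phase 0-45 above every other first-pass sample, as did 7.75% of all probe sets tested, and 8.98% had every sample of the window below. The other 5 genes overlapped by the sample at 354.23 degrees, the last before the window.

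**Figure D2:**
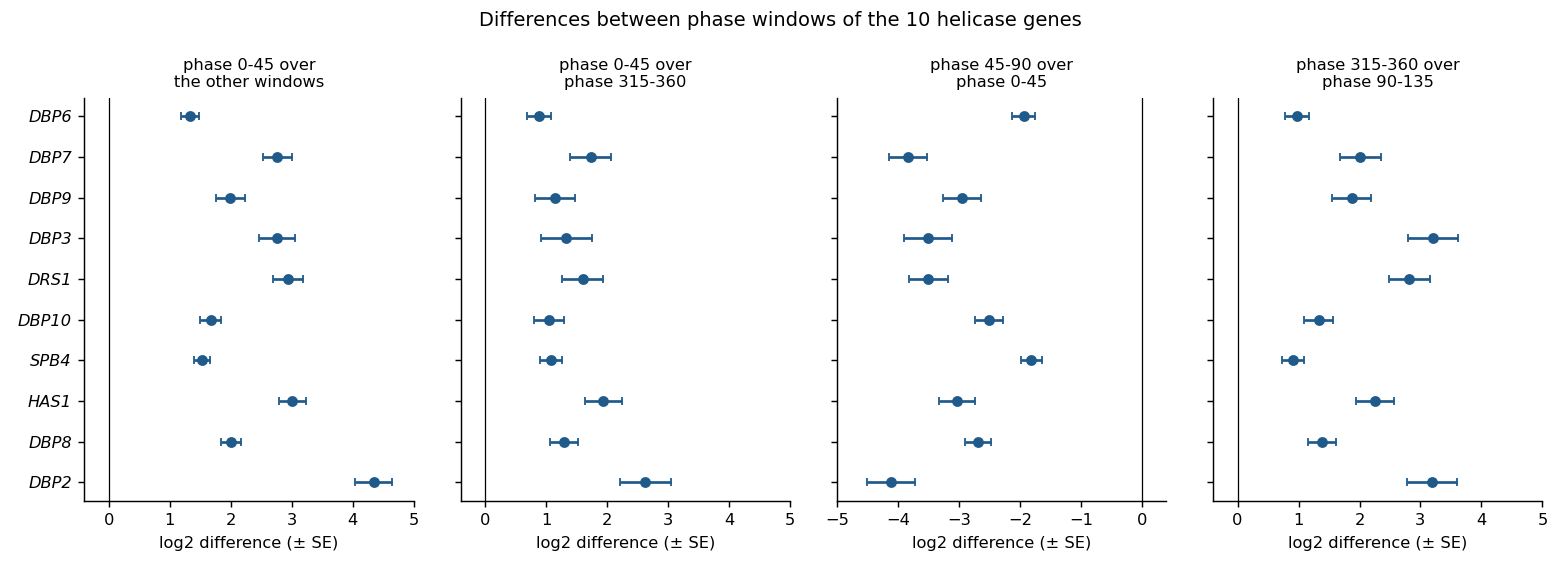
Log2 differences (points) with SE (bars) of the 10 genes in the 4 window comparisons, from 47 samples in 1 limma fit. All 10 genes lie above 0 in each panel except that of phase 45-90 over phase 0-45, where all lie below 0, and DBP2 lies farthest from 0 in every panel except the last.

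The step into the pulse differed in size among the genes. All 10 were higher in phase 0-45 than in the preceding window, phase 315-360, as were 38.3% of all probe sets. DBP2 showed the largest step (log2 2.63 ± 0.41, adjusted p 5.38e-07) and DBP6 the smallest (0.88 ± 0.20, adjusted p 0.000131). DBP3 had log2 1.33 ± 0.41 with the largest adjusted p of the 10, 0.00395. DBP3 was the 1 gene whose call was lost when the 3′ to 5′ signal ratio of the TDH1 control probe sets was added as a term (log2 0.87, adjusted p 0.133). With every second sample only, DBP3 also missed the threshold in both sets (adjusted p 0.0785 and 0.0641), as DBP9 did in 1 of them (adjusted p 0.0854).

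The level just before phase 0 differed from gene to gene. Against the mean of the first 4 samples, at 244 to 268 degrees, the sample at 354.23 degrees stood at 6.22-fold in DBP2, 2.82-fold in DRS1, 2.81-fold in HAS1 and 1.26-fold in DBP6. These first samples were taken as a starting level after the data were seen. DBP2 stood at 1037, 1230, 1596, 1936 and 3135 in the successive samples of phase 315-360. Each of these was above the one before it, and the first was already above its starting mean of 504.0 ± 120 (SD, n = 4). DBP6 stood at 1697, 1595, 1797, 1828 and 1824 in the same samples, close to flat. In the 10 min from 354.23 to 369.70 degrees the signal then went up 2.43-fold in SPB4, 2.49-fold in DBP6 and 4.37-fold in DBP2.

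**Figure D3:**
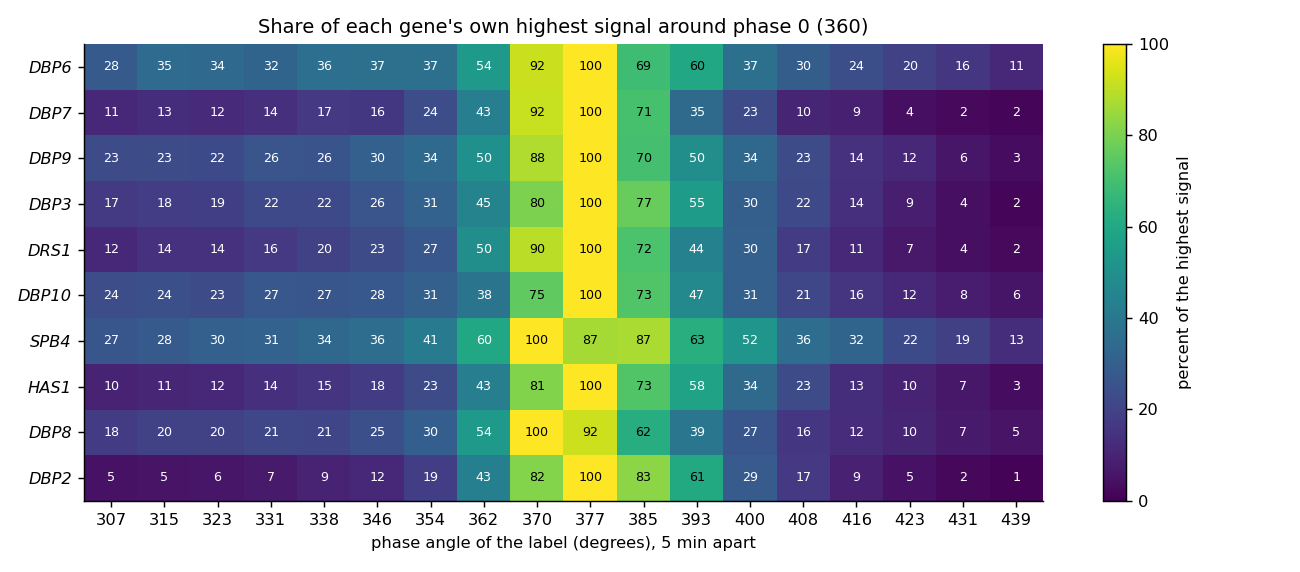
Percent of each gene's own highest signal (color and printed value) in 18 successive samples from 307 to 439 degrees, 5 min apart. At 362.04 degrees all 10 genes are between 38.4% and 59.5%, and at 438.58 degrees they are between 1.08% (DBP2) and 13.2% (SPB4).

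The exit was steep. All 10 genes were lower in phase 45-90 than in phase 0-45, as were 36.5% of all probe sets. The decreases ran from 3.51-fold in SPB4 (log2 -1.81 ± 0.17) to 17.3-fold in DBP2 (log2 -4.11 ± 0.40), with adjusted p from 1.72e-13 to 2.22e-10. DBP7 had the second largest, 14.3-fold, although its rank in the increase was lower than those of HAS1 and DRS1. Over the 7 samples from 385.00 to 430.93 degrees, log2 signal fell close to a straight line in every gene, with a squared correlation with time between 0.978 and 0.999.

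The slope of that line, a description chosen after the data were seen, corresponded to a halving of the signal every 5.70 min in DBP2, 6.30 min in DBP7, 7.20 min in DRS1 and 7.30 min in DBP3. HAS1 halved every 8.20 min, DBP9 every 8.80 min, DBP10 every 9.50 min and DBP8 every 9.90 min. SPB4 and DBP6 were slowest, at 13.6 and 13.7 min. The 5 genes with the largest increases in phase 0-45 were the 5 with the shortest halving times, and the measures share samples of that window. The halving time describes the net signal and not the half-life of the transcript.

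The minimum was lower than the starting level in every gene. The starting mean exceeded the lowest sample by 2.24-fold in SPB4, 2.94-fold in DBP8, 3.0-fold in DBP6 and 3.08-fold in DBP2, and by 12-fold in DBP3. DBP3 thus had a deeper minimum relative to its starting level than DBP2, which had the higher pulse: the highest sample exceeded the starting mean by 33.4-fold in DBP2 and 7.76-fold in DBP3. DBP3 had 158.8 at 446.24 degrees, against a starting mean of 1912 ± 84.7 (SD, n = 4).

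All 10 genes were higher in phase 315-360 than in the window from phase 90, as were 26.8% of all probe sets. The cycle outside phase 0-45 was thus not level. DBP3 had 2781, 3281, 3248, 3927 and 4663 in phase 315-360 and 208.3, 301.2, 346.2, 415.9, 524.8 and 656.3 in the window from phase 90, a 9.22-fold difference (log2 3.21 ± 0.41, adjusted p 2.41e-08). DBP2 differed 9.11-fold (log2 3.19 ± 0.41) and DRS1 7.04-fold (log2 2.82 ± 0.34). The highest DBP3 sample of the window from phase 90 lay below the lowest of phase 315-360. DBP6, at 1.97-fold (log2 0.98 ± 0.20, adjusted p 5.30e-05), and SPB4, at 1.89-fold (log2 0.92 ± 0.18, adjusted p 3.79e-05), differed least. This comparison uses no sample of phase 0-45, but phase 315-360 holds the rise toward it in genes such as DBP2. The cosine test without the arrays of phase 0-45 also called all 10, with log2 differences from 0.61 (SPB4) to 2.52 (DBP3). It called 78.9% of all probe sets, and it keeps the samples of phase 315-360 and of the fall in phase 45-90.

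The genes were back at 50% of their starting mean at different times, a measure that also depends on how deep each minimum was. The starting mean exceeded the lowest sample by 2.24-fold in SPB4 and by 12-fold in DBP3. DBP6 and SPB4 were first back at 50% of their starting mean at 461.55 degrees, DBP8 at 469.20 and DBP10 at 476.85. DBP7, DBP9 and HAS1 reached it at 484.51 degrees. DRS1 followed at 507.47, DBP2 at 515.12 and DBP3 at 530.43 degrees. From the lowest sample this took 5 min in SPB4, 40 min in DBP2 and DRS1, and 55 min in DBP3.

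DBP2 stayed nearly flat at its minimum: 175.8 at 446.24 degrees, then 163.5, 171.7, 169.5, 173.7 and 183.0 up to 484.51 degrees. DRS1 had 145.1 at 446.24 degrees and 339.7 at 484.51 degrees, so it was already climbing while DBP2 was level. In the window from phase 90 the mean was 21.4% of the starting mean in DBP3, 29.9% in DRS1, 36.3% in DBP2 and 68.8% in SPB4. By the window from phase 180 all 10 stood at 85.6% (DBP3) to 108% (DBP8) of it. These values come from 1 cycle and carry no test.

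**Figure D4:**
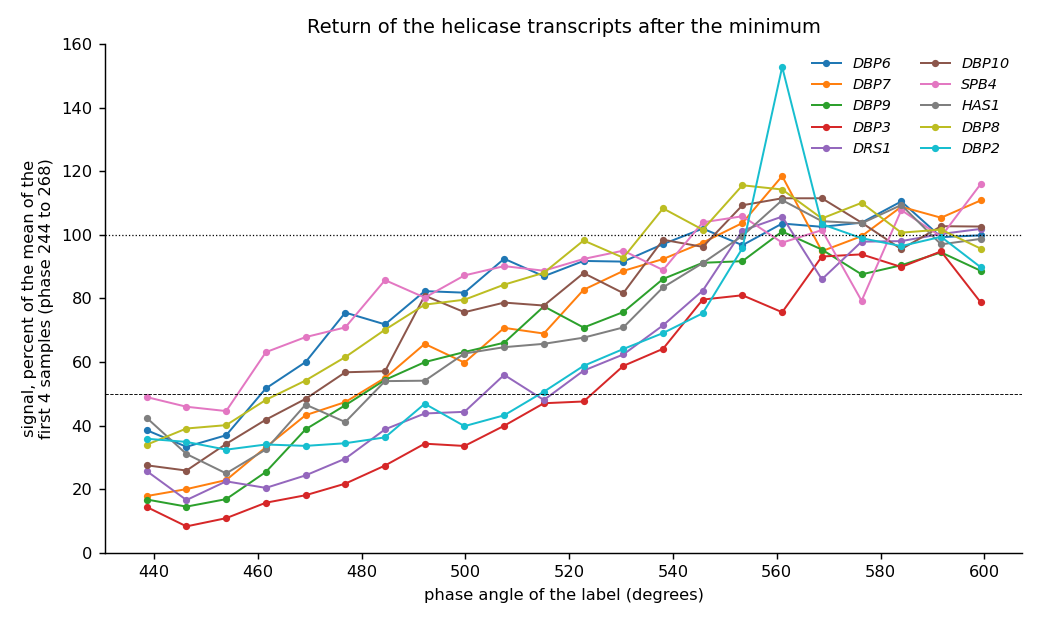
Signal of each gene as percent of the mean of its first 4 samples (244 to 268 degrees) against phase angle, from 438.58 to 599.32 degrees. Dashed and dotted lines mark 50 and 100 percent. DBP6 and SPB4 pass 50 percent first, at 461.55 degrees, and DBP3 last, at 530.43 degrees. DBP2 has a single high sample at 561.05 degrees.

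The second pass, in 2 samples at 606.97 and 614.63 degrees, allowed a look at whether levels came back after 1 cycle. Their mean stood at 0.856-fold (DBP2) to 1.09-fold (DBP6 and DBP8) of the mean of the first 2 samples, at 244.11 and 251.97 degrees. DBP2 had 479.0 and 454.2 in the second pass, against 679.3 and 410.4 in the first 2 samples. The first of those was its highest value in the window up to phase 270, and the other lay below both samples of the second pass. DBP3 had 1769 and 1930 in the second pass, against 1975 and 1813. With 2 samples a side no test was made.

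The genes were alike in shape but not identical. Over 49 samples the Pearson correlation of log2 signal between pairs of genes ranged from 0.837 (DBP2 with DBP6) to 0.989 (DBP7 with DBP8), with a median of 0.948 over 45 pairs. All pairs share the same arrays and the same pulse. In the 32 samples of phase 90 to 315 and the second pass, which leave out the pulse, the correlation ranged from 0.721 (DBP2 with SPB4) to 0.983, with a median of 0.947. DRS1 was most like the mean of the other 9 (r = 0.990) and DBP2 least (r = 0.926). Of the other 9, HAS1 was closest to DBP2 (r = 0.984), and the pair of DBP3 and DRS1 gave the same value (r = 0.984).

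By the same measure over 49 samples, the genes nearest to the mean pattern of the 10 were MAK5, ARX1, UTP8, NOC4 and IPI3, each with r = 0.996. MAK5 encodes a further DEAD-box helicase of 60S assembly, ARX1 and IPI3 encode factors of later 60S particles, and UTP8 and NOC4 encode small-subunit factors. They were 5.56-fold (NOC4) to 7.33-fold (UTP8) higher in phase 0-45 than over the other 7. The genes nearest to DBP2 were AAH1, an adenine deaminase of purine salvage (r = 0.993), YCR087C-A (r = 0.987) and UTP6, a small-subunit processome factor (r = 0.980). AAH1 was 14.7-fold higher in phase 0-45, against 20.3-fold for DBP2. All these genes were picked for likeness over samples that include phase 0-45. Their increases there follow from that choice and are not a separate result.

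Other helicases showed how far the pattern extended. All 9 further helicases of ribosome assembly (HCA4, ROK1, FAL1, RRP3, MAK5, ECM16, DHR2, PRP43 and MTR4) were higher in phase 0-45. Over all probe sets 40.9% were higher and 44.7% lower. The median log2 difference of the 9 was 2.69, against -0.04 over all probe sets. PRP43, a DEAH-box helicase of both ribosome assembly and splicing, had the largest (log2 2.84 ± 0.24), followed by FAL1 of small-subunit assembly (2.80 ± 0.22). ECM16 had the smallest (2.17 ± 0.22). Their range, 2.17 to 2.84, was narrower than the 1.33 to 4.34 of the DEAD-box group described above. All 9 were also lower in phase 45-90 than in phase 0-45, as were 36.5% of all probe sets. They were higher in phase 315-360 than in the window from phase 90, as were 26.8% of all probe sets.

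Among 10 cofactors that bind or stimulate assembly helicases, 9 were higher in phase 0-45 and 1 was not called. Over all probe sets 40.9% were higher and 44.7% lower. The median log2 difference of the cofactors was 2.06, against -0.04 over all probe sets. UTP14 (log2 2.80 ± 0.31), an activator of Dhr1, and PXR1 (2.79 ± 0.20), an activator of Prp43, had the largest. SQS1, a further activator of Prp43, had 800.2 ± 84.2 in phase 0-45 and 842.2 ± 67.4 in the other windows (SD, n = 6 and 41), a log2 difference of -0.08 ± 0.06 with adjusted p 0.195. None of the 5 tests called SQS1, and its cosine test gave adjusted p 0.379. It was called in some tests under other settings: cycling after quantile normalization, lower in phase 0-45 without the sample at 362.04 degrees, and higher in phase 45-90 than in phase 0-45 with the values as deposited.

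DEAD-box proteins with other work gave another picture. Of 9 genes for translation, mRNA export, mRNA decay and splicing, 8 were measured, since no probe set carried the symbol TIF1. In phase 0-45, 5 were higher, 2 lower and 1 not called, against 40.9% of all probe sets higher and 44.7% lower. The median log2 difference was 0.31, against -0.04 over all probe sets. DED1, a translation initiation helicase, was 2.49-fold higher (log2 1.32 ± 0.09), at 8166 ± 2250 in phase 0-45 and 3200 ± 513 in the other windows.

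DBP1, a close paralog of DED1, went the other way. It had 659.8 ± 334 in phase 0-45 and 2908 ± 507 in the other windows, 4.87-fold lower (log2 -2.29 ± 0.15, adjusted p 1.78e-16). The other gene that was lower, DHH1 of mRNA decay, named after its value was seen, had log2 -0.39 ± 0.06. PRP5 of splicing was not called (log2 0.13 ± 0.07, adjusted p 0.0668). Both mitochondrial DEAD-box helicases were slightly higher, MRH4 by log2 0.57 ± 0.09 and MSS116 by 0.19 ± 0.06, with 1 of the 2 called from the values as deposited.

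The 6 DEAH-box and Ski2-like helicases of splicing and mRNA decay moved little. In phase 0-45, 5 were higher and none lower, where 40.9% of all probe sets were higher and 44.7% lower. The median log2 difference was 0.20, and the largest was that of SKI2 (0.25 ± 0.05), followed by BRR2 (0.23 ± 0.06). SLH1 was not called (log2 -0.12 ± 0.06, adjusted p 0.0539). With the values as deposited 0 of the 6 were called higher and 1 lower, so the direction of this group depends on the scaling. All 10 assembly helicases had larger differences than each of these 6. They also exceeded DED1, DBP6 by log2 1.33 against 1.32 only, a margin within the SE of either.

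**Figure D5:**
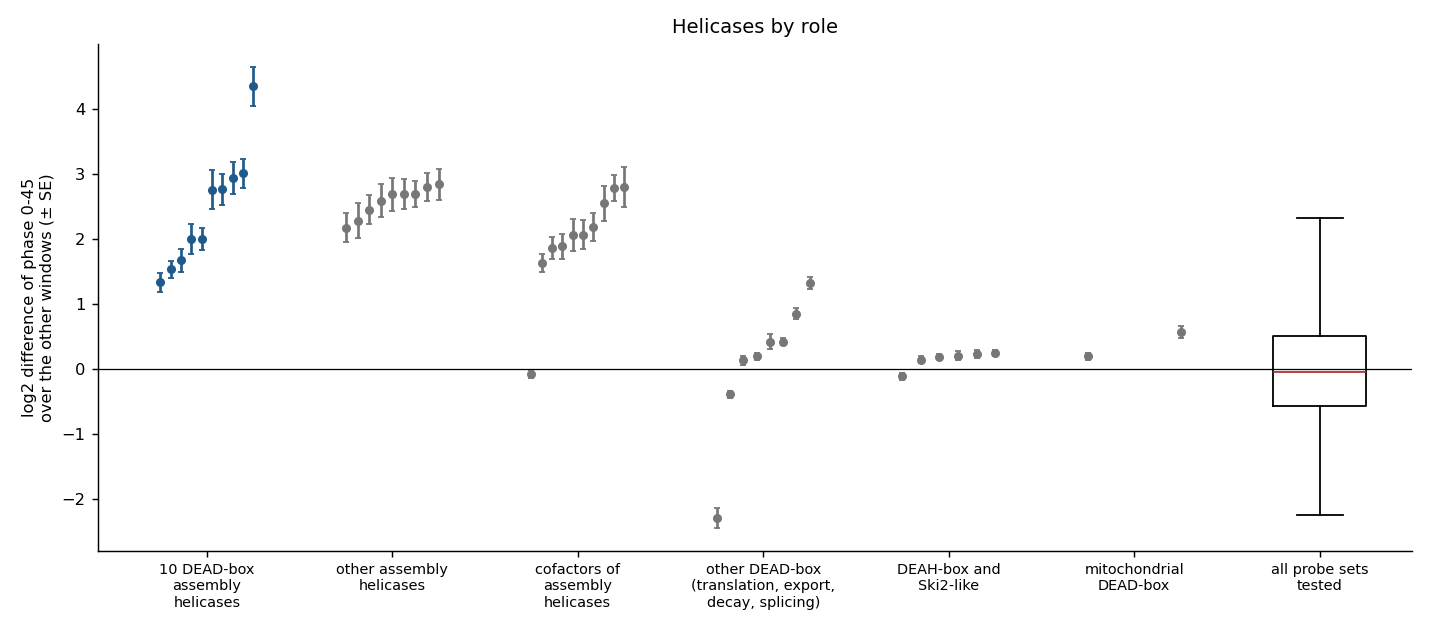
Log2 difference of phase 0-45 over the other windows (points) with SE (bars) for each gene of 6 groups, in order of size within a group, beside all 5470 probe sets tested (box, the middle 50 percent with the median, and whiskers, the middle 95 percent). The 10 DEAD-box assembly helicases lie between 1.33 and 4.34, and the 6 DEAH-box and Ski2-like helicases between -0.12 and 0.25.

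The genes next to the helicases on the chromosomes, looked up after the results were seen, moved in both directions. In the RefSeq annotation of assembly R64, made from another strain, no neighbor overlapped a helicase gene. Of 20 neighbors, 18 were measured, and in phase 0-45, 10 were higher, 7 lower and 1 not called, with a median log2 difference of 0.16. Over all probe sets 40.9% were higher and 44.7% lower, with a median of -0.04. The largest increases among the neighbors were on the same strand, NMD3 beside DBP8 (log2 2.185 ± 0.21) and RPC19 beside DBP2 (1.976 ± 0.246). Of 6 neighbors that lie upstream on the opposite strand, 2 were higher, RPC37 beside DBP7 (log2 1.79 ± 0.19) and DEG1 beside SPB4 (1.59 ± 0.13). TDA1 beside HAS1 was lower (-2.03 ± 0.17), as was COX17 beside DRS1 (-1.34 ± 0.13).

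The arrays differed in ways that bear on these values. The median deposited signal of an array ranged from 1456 to 2595, which is why each array was set to the same median. With the values as deposited, all 10 genes kept each call, and their median log2 difference in phase 0-45 against the other windows was 2.26. The split of all called probe sets changed more: for phase 0-45 against phase 315-360, 51.1% of the calls were increases with the same median and 37.8% with the deposited values. For phase 45-90 against phase 0-45 these shares were 54.0% and 74.9%, and for phase 315-360 against the window from phase 90 they were 44.5% and 68.6%.

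As a measure of RNA quality, the TDH1 control had a log2 ratio of 3′ over 5′ signal that averaged 0.325 ± 0.191 in phase 0-45 and 0.076 ± 0.085 in the other 43 arrays (SD). That of ACT1 averaged 0.365 ± 0.129 in phase 0-45 and 0.226 ± 0.087 in the others. The RIP1 ratio averaged 0.33 ± 0.07 in phase 0-45 and 0.21 ± 0.09 in the others. For SPT15 the averages were closer, 1.06 ± 0.13 and 1.00 ± 0.10. With the TDH1 ratio as a term, all 10 genes were still called higher in phase 0-45 than over the rest. As markers of mating type a, the 7 a-specific genes had median signals from 1011 to 8821. The 4 alpha-specific genes had 85.9 to 1276 and were not at 0, and MF(ALPHA)1 was 5.17-fold higher in phase 0-45 (log2 2.37 ± 0.18). In phase 0-45, 6 of the 7 a-specific genes were higher and 1 lower, and of the 4 alpha-specific genes 1 was higher and 2 lower. The shares of all probe sets were 40.9% higher and 44.7% lower. The part of either measure in the pulse was not tested further.

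Probe sets of another yeast species that bear the names of the same helicases, 7 in number, are a check on background. Their median signals were between 0.9 and 21.4 in phase 0-45 and between 0.9 and 12.8 elsewhere. The lowest signal of any of the 10 genes in any sample was 136.6, in DBP7 at 438.58 degrees.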

How the data were processed

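Total RNA of 49 samples was amplified from oligo(dT) primers and hybridized to Affymetrix Yeast Genome 2.0 arrays, per the labels' protocols. The authors deposited 1 signal per probe set, which is a linear intensity. It was computed with GCOS, per the submitters' processing notes, and its settings were not given in any source used here. Of 10928 probe sets, 5498 have 1 S. cerevisiae gene in the platform annotation. Those with a median signal above 11.2, the 75th percentile of the medians of other-species probe sets, were tested (5470). Each array was scaled to a median of 1902, signals below 1 were raised to 1, and the log2 scale was used throughout. Where a gene has several probe sets, the one with the highest mean stands for it.

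Tests used limma 3.58.1 (R 4.3.3; lmFit and eBayes) with Benjamini-Hochberg adjustment over all probe sets tested, and a call is an adjusted p under 0.05. All 8 windows entered 1 fit. The scripts were tested on simulated data. Folds are 2 to the power of the log2 difference. Means of signals are linear, so their ratio differs from the fold. The number of arrays limits the precision.

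The members, lists and tests were chosen with earlier results of these data known. Named genes were the 10 members, the 2 largest and the 1 smallest difference (phase 0-45 against the other windows) of each other list, the 5 genes most like the mean of the members, and the 3 most like the member least like the others. Lists are described by counts and medians with no set test. Alternatives were other scalings, an offset of 16, no filter, terms for array number, time and the TDH1 ratio, an intensity trend, every second sample, 60-degree windows, and, in the window comparisons, each sample of the 4 windows that they name left out in turn. No sequences were used here.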

Additional observations from a re-analysis of the deposited data

Results flagged for a closer look

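In 4 of 80 gene and window groups, 1 sample stood apart from the others of its window by Dixon's criterion at 95 percent, about the share of 1 in 20 that chance gives. DBP2 had 236.3 at 492.16 degrees, against 163.5 to 183.0 in the other 5 samples of the window from phase 90. DBP3 had 1506 at 599.32 degrees, against 1813 to 1990 in the others of the window up to phase 270. DBP10 had 1931 at 259.84 degrees, against 2063 to 2108 in the others of that window. SPB4 had 780.9 at 576.36 degrees, against 961.1 to 1062 in the others of the window from phase 180. The 4 values came from 4 different arrays, and none lay in phase 0-45. The windows follow a changing signal, so their samples also differ by phase.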

How the results depend on the processing

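Over all alternatives, 1106 of 1110 values of the 10 helicases kept their direction and their side of the threshold, and none reversed. The 4 exceptions, all in phase 0-45 against phase 315-360, lost the call: DBP3 with the TDH1 ratio term, DBP3 in both sets of every second sample, and DBP9 in the even set. Their values stand in the report, and the even and odd sets hold fewer samples by construction. In the window comparisons, leaving out in turn each sample of phase 0-45, phase 45-90, phase 315-360 or the window from phase 90 that a comparison includes changed no call of the 10 genes. Samples of the other windows were not left out, and none was in the cycling test. For example, it gave log2 2.46 to 2.86 for DBP2 and 1.19 to 1.53 for DBP3 in that comparison. Windows of 60 degrees gave log2 1.01 (DBP6) to 3.88 (DBP2) for the increase. The unbroken run of samples around the highest signal at or above 25% of it held 5 (DBP7) to 22 (DBP6) samples, for DBP6 back to the start of the series, and with the values as deposited DBP10 held 5 samples at 50%. Of the other values, 126 moved, all of them counts of the comparison lists or these widths. Counts over all probe sets depended more on scaling and sample number. For phase 0-45 against phase 315-360, 2093 were higher, against 1274 as deposited and 1322 in the even set. For phase 45-90 against phase 0-45, 1999 were lower, against 1021 as deposited. For phase 315-360 against the window from phase 90, 1466 were higher, against 893 in the even set, and 1831 were lower, against 702 as deposited, 985 in the even and 1065 in the odd set. As deposited, the median over all probe sets moved to -0.16 for phase 0-45 against the others, -0.12 against phase 315-360, and 0.42 for phase 45-90 against phase 0-45. The cause was not tested. Limits are 1 culture, 1 cycle, 1 array per sample, and a signal that measures a share of RNA.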

Other observations

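DBP2 showed 2 single high samples outside the pulse. It had 770.3 at 561.05 degrees, between 483.0 and 521.0 in the samples before and after. It had 679.3 in the first sample of the series, at 244.11 degrees, against 410.4 to 477.0 in the next 3. HAS1, the gene most like it, had 1156 at 561.05 degrees, between 1039 and 1087, and 1005 in the first sample, against 1037 to 1080 in the next 3. At 561.05 degrees DBP6, DBP7, DBP9 and DRS1 also lay above the samples before and after, DBP7 at 907.1 between 794.1 and 726.2. DBP3, at 1447, and SPB4, at 961.1, lay below both, and DBP8 and DBP10 did neither. The 2 samples of DBP2 were picked after their values were seen, and no test was made.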
